A study of Mus musculus with 7 samples.

Results

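The synaptic vesicle release machinery was followed here through 9 mouse genes, Syt1, Snap25, Stx1a, Vamp2, Cplx1, Cplx2, Rph3a, Sv2a and Dnm1, in brain and kidney. Its probe sets were those whose single gene symbol in the platform annotation was one of these names. All 9 genes had a sense probe set, 21 in all of the 45037 on the sense arrays, of which 15 are carried by the 430A and 6 by the 430B array. Only Sv2a had a probe set among the 5652 reverse probe sets that read antisense RNA, and the other 8 genes had none. The study hybridised total RNA of whole mouse brain and kidney to 7 Affymetrix arrays, 3 of them for the sense strand and 4 for the antisense strand. For sense, brain RNA went to the 430A and 430B designs and kidney RNA to the 430 2.0 design, which holds the probe sets of both. Antisense was read in each tissue on a U74A and a U74B array, through those probe sets listed as reversed in Affymetrix's mask. Each dissected tissue was rinsed and extracted without culture, with 8 micrograms of RNA labelled for brain and 6.75 for kidney. Strain, age, sex and the number of animals behind an RNA are not given in the sources used here, and no treatment or allele is named for either tissue. Each tissue had 1 array of each design, so there is no replicate error, no test and no p-value for any difference below.

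A nerve terminal releases transmitter when a vesicle fuses with the plasma membrane. Fusion is driven by SNARE proteins, one on the vesicle (Vamp2) and others on the target membrane (Stx1a and Snap25), that zip into a bundle. Syt1 senses the incoming calcium, the complexins Cplx1 and Cplx2 bind the assembled SNARE bundle, Rph3a binds the vesicle GTPase Rab3, Sv2a is a glycoprotein of the vesicle membrane, and Dnm1 pinches new vesicles off after fusion. Neurons and endocrine cells use this apparatus for regulated secretion, and other tissues, kidney among them, use related proteins of the same families for their own membrane traffic.

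All 9 release genes were higher in brain than in kidney on the sense arrays. Each gene is represented by the probe set whose percentile, averaged over brain and kidney, is highest, and is called for a tissue when the ratio reaches 2-fold. By this rule 18.2% of the 12913 genes above the floor were called for brain and 26.4% for kidney. The floor is the higher median of the arrays compared, once their ratios had been centred so that the median ratio of bright probe sets was 1. On the scale of the kidney array it was 186.4 for the 430A pair and 28.6 for the 430B pair. Where the lower tissue lay below it, the fold is a lower bound on the centred scale and is written as "at least". Signals are printed as deposited and folds are after centring, so a fold is not the quotient of the signals beside it. Without centring, a log2 ratio measured in both tissues fell by 0.84 on 430A and was up to 2.08 higher on 430B. The median log2 ratio of the 9 genes was 4.76, with 7 of the 9 ratios being such bounds, against -0.08 over all genes. By probe set, 15 of 15 were higher in brain on 430A, where the share over all probe sets was 19.8%, and 5 of 6 on 430B, where it was 18.7%. In kidney, 17 of the 21 probe sets lay below the floor, and those above it belonged to Vamp2 (1) and Cplx2 (3). Which ones lay below it depends on the scaling. With signals as deposited the floors were 121.2 on 430A and 121.5 on 430B. The kidney signals of Stx1a 1437390_x_at (164.5) and Sv2a 1423406_at (131) were then above the floor, and that of Cplx2 1436383_at (88.4) below it. In brain none lay below it, and 17 of 21 were in the brightest 10% of their array. Signals of different probe sets also carry differences in binding strength, so the levels of these genes were not ranked against each other. Array type cannot be told apart from tissue here, and in whole tissue fewer cells of a type cannot be told apart from less RNA per cell.

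**Figure D1:**
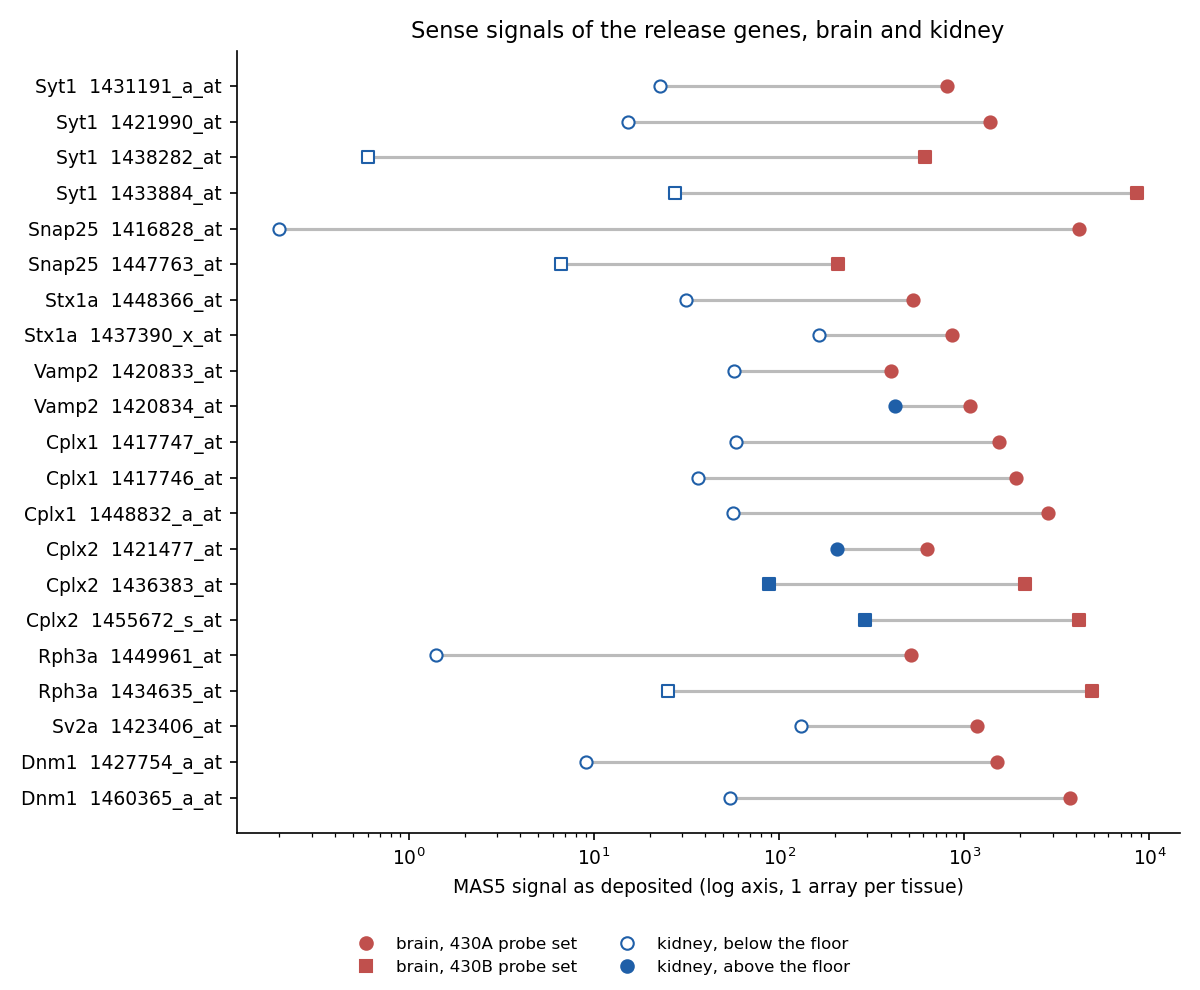
MAS5 signals as deposited (log axis) of the 21 sense probe sets of the 9 release genes, with brain in red and kidney in blue; circles are 430A and squares 430B probe sets, and open blue symbols lie below the floor. Brain is to the right of kidney for all 21 probe sets, and only 4 kidney symbols, of Vamp2 and Cplx2, are filled.

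The tissue labels were checked against cell type genes. Of 13 neuron markers with a probe set, all 13 were higher in brain (12 with signals as deposited). Their summed signal was 25588.6 in brain and 396.5 in kidney, and their kidney values ran from 1.3 (Tubb3) to 152.5 (Map2), none at 0. Of 12 kidney tubule markers, 11 were higher in kidney, with a summed signal of 1103.5 in brain and 49747.6 in kidney. Lrp2, read on 430B, was called for brain, while its 430A probe sets were called for kidney (log2 ratios -3.69 and -2.51). Of the podocyte markers, 4 were above the floor, with 1 higher in kidney (Podxl, 106.6 in brain and 1837.5 in kidney), 1 in brain (Synpo, which turned to kidney with another probe set) and 2 in neither, so this list did not separate the tissues. Glial markers were higher in brain along with the release genes, 7 of 8 for astrocytes (6 with signals as deposited; summed signal 21569.9 in brain and 2203.3 in kidney) and 6 of 6 for oligodendrocytes (13925.3 and 751.3). Of 5 peripheral nerve markers above the floor, 1 was higher in brain and none in kidney (1246.2 and 1003.7 summed). Endocrine cells also hold release proteins, and 7 of the 10 endocrine and chromaffin cell markers above the floor were higher in brain (with signals as deposited, 7 of 9, with 1 higher in kidney). Their summed signal over 12 genes was 17991.3 in brain and 872.9 in kidney. The pituitary hormone genes Gh (5129.1 against 33.8), Prl (4519.1 against 1.6) and Pomc (3041.6 against 52.7) led them. The part of pituitary and glial cells in the brain values of the release genes was not tested.

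Because the release genes were all higher in brain, the bases before their starts were set side by side. RefSeq windows of GRCm38.p6 were found for 7 of the 9 genes (not for Snap25 and Vamp2), 10 windows in all, since Syt1 has 2 and Rph3a 3. The 250 bases before each start were searched on both strands. GGGCGG, the GC box, was in 5 of 10 windows (Cplx1, Rph3a, Stx1a, Sv2a and Syt1) and in 32.7% of all 32851 windows. CCAAT was in 3 of 10 (Rph3a and Syt1) and in 33.8% of all. TGACG, the core of the cAMP response element, was in 1 (Stx1a) and in 17.8% of all, while its full form TGACGTCA, which holds that core, was in none and in 1.55% of all. TATAAA was in none of the 10 and in 12.4% of all. These are matches of letters in a short window and not binding sites.

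Below are 4 of these windows, 5′ to 3′ on the strand of the gene and ending at the base before the start, with the matches in capitals. That of Syt1 (chr10:109010976-109011225, minus strand) holds CCAAT, read on either strand, from 74 and 40 bases before the start, and a GC box from 11 bases before it. That of Stx1a (chr5:135023232-135023481, plus strand) holds TGACG 144 and a GC box 74 bases before the start. The complexin windows are shown since these genes lay on different sides of the floor in kidney: that of Cplx1 (chr5:108550028-108550277, minus strand) holds a GC box 11 bases before the start, and that of Cplx2 (chr13:54302306-54302555, plus strand) holds none of the motifs. G and C made up 64.8% of the Cplx1 window and 50.8% of the Cplx2 window, against a median of 52.4% over all windows.
Syt1: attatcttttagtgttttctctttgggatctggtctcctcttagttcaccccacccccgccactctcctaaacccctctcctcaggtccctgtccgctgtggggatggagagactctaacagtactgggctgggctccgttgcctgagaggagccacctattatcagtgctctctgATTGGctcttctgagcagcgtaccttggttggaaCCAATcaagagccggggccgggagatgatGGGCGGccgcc
Stx1a: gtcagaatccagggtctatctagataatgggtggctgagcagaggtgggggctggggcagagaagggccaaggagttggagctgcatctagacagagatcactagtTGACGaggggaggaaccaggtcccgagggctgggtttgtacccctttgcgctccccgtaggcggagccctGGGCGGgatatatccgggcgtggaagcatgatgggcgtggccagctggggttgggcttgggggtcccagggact
Cplx1: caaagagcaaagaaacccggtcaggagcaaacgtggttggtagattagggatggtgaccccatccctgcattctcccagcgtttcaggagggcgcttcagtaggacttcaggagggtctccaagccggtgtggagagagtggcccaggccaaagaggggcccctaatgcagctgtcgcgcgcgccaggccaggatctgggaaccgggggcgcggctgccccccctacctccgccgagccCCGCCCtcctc
Cplx2: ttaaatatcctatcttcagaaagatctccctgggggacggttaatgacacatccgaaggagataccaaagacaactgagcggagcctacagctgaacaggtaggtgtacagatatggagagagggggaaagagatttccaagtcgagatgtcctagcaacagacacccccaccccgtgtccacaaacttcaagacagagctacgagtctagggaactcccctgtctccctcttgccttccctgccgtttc
The arrays used here read transcripts and not these windows, so no value given here was measured on them.

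Snap25, a SNARE of the target membrane, was called for brain by 1 of its 2 probe sets. Its 430A probe set 1416828_at read 4170 in brain and 0.2 in kidney, a gap of at least 40.1-fold. Its 430B probe set 1447763_at read 208.1 and 6.6, and lay so near the floor that the bound is only 1.71-fold. That probe set was the single one of the 21 not counted as higher in brain, and it stood at percentile 67.7 of the brain array, the lowest of all. Stx1a, the syntaxin of the neuronal plasma membrane, read 854.2 in brain and 164.5 in kidney with 1437390_x_at, and 530.6 and 31.4 with 1448366_at. After centring these gave bounds of at least 8.21-fold and at least 5.10-fold, both towards brain. With signals as deposited the log2 ratio of 1437390_x_at was 2.38 in place of 3.04, and its kidney signal was above the floor of 121.2. The _x_at mark of the first means that some of its probes may also bind other sequences.

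Vamp2, the SNARE of the vesicle, was above the floor in kidney with 1 of its 2 probe sets. Probe set 1420834_at read 1074.1 in brain and 424 in kidney, which is percentile 85.1 of the kidney array, and was 4.54-fold higher in brain, with both signals above the floor. The second, 1420833_at, read 400.2 and 56.9, at least 3.85-fold higher. With signals as deposited, that is without centring, the log2 ratio of 1420834_at was 1.34 in place of 2.18, still over 2-fold. When the floor was raised to percentile 75, the log2 bound of 1420833_at was 0.64, under 2-fold. Among the 8280 genes that cleared the floor in brain and in kidney alike, 2.77% had a larger ratio towards brain than Vamp2.

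Syt1, the calcium sensor, was read by 4 probe sets, all higher in brain. On 430B, 1433884_at read 8559.8 in brain and 27.4 in kidney, a gap of at least 70.5-fold, and 1438282_at read 611.5 and 0.6, at least 5.03-fold. On 430A, 1421990_at read 1375.2 and 15.3, and 1431191_a_at read 806.8 and 22.7, at least 13.2-fold and at least 7.76-fold higher. All 4 kidney signals lay below the floor, so the spread of these bounds follows the brain signals, which differed 14.0-fold among the probe sets of this gene.

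The complexins lay on different sides of the floor in kidney. This rests partly on the floor differing by design, 186.4 for 430A and 28.6 for 430B. The Cplx1 kidney signals, all on 430A, were above the 430B floor, and that of Cplx2 1436383_at was below the 430A floor. Cplx1 was read by 3 probe sets of 430A, at 1543.4, 1904.9 and 2820 in brain and 58.2, 36.4 and 56.2 in kidney, in the same order. All kidney values were below the 430A floor, and the bounds were at least 14.8-fold, at least 18.3-fold and at least 27.1-fold. Cplx2 was above the floor of the design in kidney with each of its 3 probe sets, so its folds are measured. On 430A, 1421477_at read 627.7 in brain and 205.8 in kidney, 5.47-fold higher in brain, its kidney signal lying just over the floor of 186.4. On 430B, 1436383_at read 2131.9 and 88.4, and 1455672_s_at read 4167 and 291.3, 5.69-fold and 3.37-fold higher. The values of Cplx2 depend on how the arrays are scaled. With signals as deposited, 1421477_at was at a log2 ratio of 1.61 in place of 2.45. When 430B was rescaled to 430A by the 100 probe sets common to both brain arrays, their log2 ratios were 4.10 and 3.35, in place of 2.51 and 1.75, and with signals as deposited 4.13 and 3.84. Of the genes measured in both tissues, 4.57% had a larger ratio than Cplx2.

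Rph3a, the Rab3 effector, read 4890.7 in brain and 25.2 in kidney with 1434635_at on 430B, making it at least 40.3-fold higher in brain. Its 430A probe set 1449961_at read 516.4 and 1.4, at least 4.97-fold higher. Sv2a, the vesicle glycoprotein, had 1 sense probe set, 1423406_at, which read 1171.5 in brain and 131 in kidney, making it at least 11.3-fold higher after centring (log2 ratio 3.49, and 3.16 with signals as deposited). Both genes were below the floor in kidney with every probe set after centring. With signals as deposited the 430A floor was 121.2, and the Sv2a kidney signal of 131 was above it. Dnm1, the neuronal dynamin, read 3707.8 in brain and 54.1 in kidney with 1460365_a_at, and 1502.4 and 9.1 with 1427754_a_at, at least 35.7-fold and at least 14.4-fold higher. Both Dnm1 probe sets carry the _a_at mark, used for probe sets shared by several transcripts of 1 gene, so no unmarked probe set reads this gene.

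The probe sets of a gene were read on the same arrays and are not replicates, but they show how far a value rests on 1 probe set. Apart from Snap25, each gene with several probe sets had all of them called for brain. Cplx2 was the only gene measured above the floor in both tissues on both designs, at log2 ratios of 2.45 on 430A and 2.51 and 1.75 on 430B. For the other genes most values are bounds, whose spread follows the brain signals and does not show how far the ratios differ. The only repeat reading of a tissue, the 98 bright probe sets on both brain arrays, had an SD of 0.25 on the log2 scale after centring. The same probe sets read 2.51-fold brighter on 430B than on 430A in brain. Where kidney lay below the floor on 430B, the ratio was the same with signals as deposited and with 430B on the 430A scale, because the floor is then the brain median and moves with it. Raising the floor to percentile 75 lowered every bound, for example from a log2 ratio of 6.14 to 5.01 for Syt1 1433884_at and from 5.33 to 4.02 for Snap25 1416828_at, and 19 of the 21 probe sets were still called for brain.

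**Figure D2:**
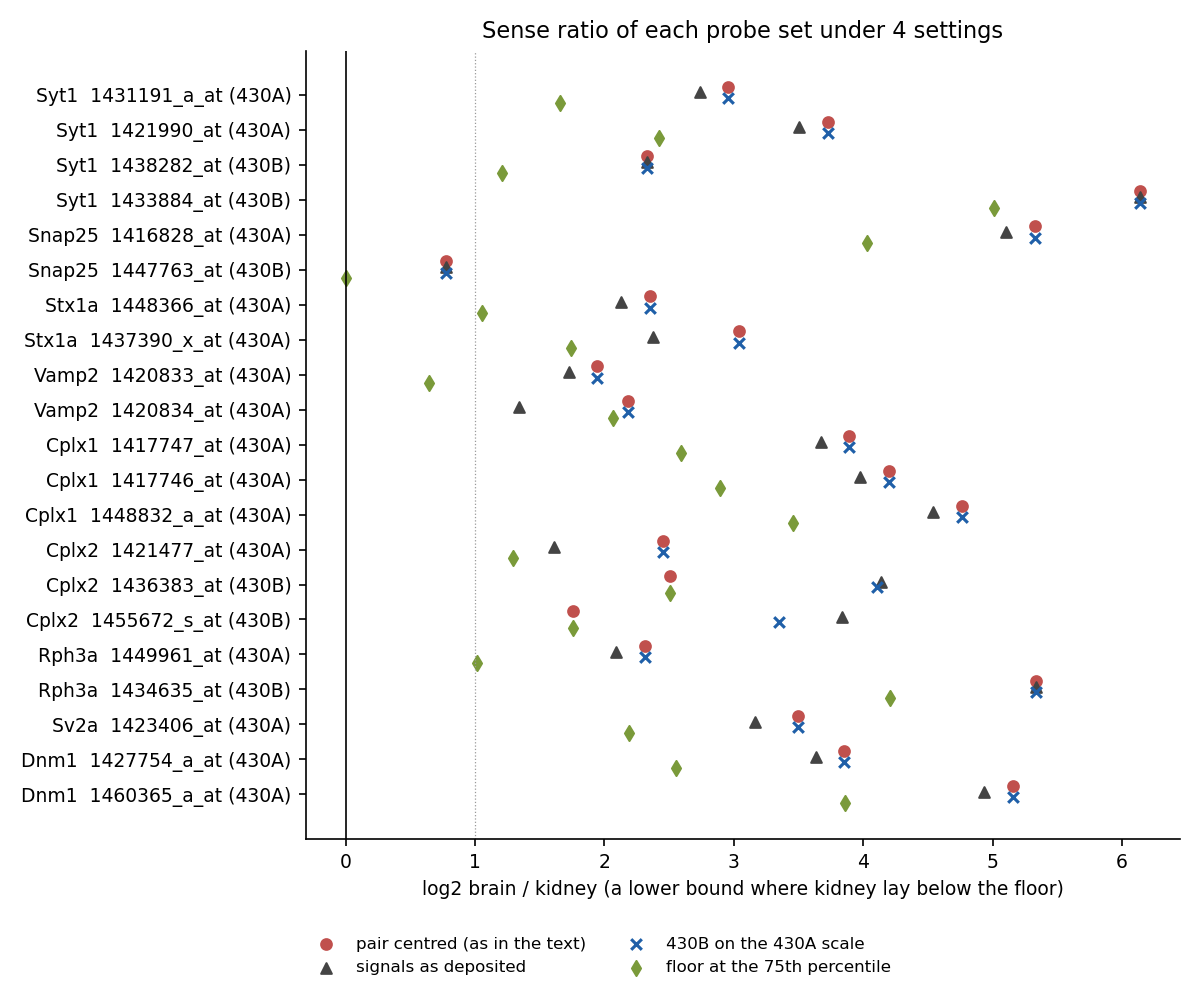
Log2 ratio of brain over kidney for each sense probe set of the release genes with each pair centred (circles), with signals as deposited (triangles), with 430B on the 430A scale (crosses) and with the floor at the 75th percentile (diamonds); the dotted line marks 2-fold. Snap25 1447763_at is left of that line in all 4 settings, Vamp2 1420833_at with the higher floor, and the Cplx2 probe sets of 430B shift furthest with scaling.

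The relatives of the release genes were less one-sided. Of 36 paralogs with a probe set, 29 cleared the floor: 11 were called for brain, 4 for kidney and 14 for neither, and their median log2 ratio was 0.76. Over all genes above the floor, 18.2% were called for brain and 26.4% for kidney. The paralog count for brain varied with the settings, from 6 of 29 at a 4-fold threshold to 19 of 36 without a floor. Over all genes it was 804 of 12913 and 4696 of 18193. The 4 paralogs called for kidney were all SNAREs. Vamp8, a SNARE of endosomes and of secretion in epithelia, read 182.3 in brain and 1740.8 in kidney, 5.33-fold higher in kidney. Stx3, a syntaxin of the apical membrane of epithelia, read 163.6 and 1056.8, 3.61-fold higher in kidney with the probe set that represents it. Vamp3, a widely expressed endosomal SNARE, read 308.9 and 1411.2, 2.55-fold higher in kidney. Snap23, the widely expressed relative of Snap25, read 49.8 and 457.3, at least 2.45-fold higher in kidney. With signals as deposited the log2 ratios of Vamp8, Stx3, Vamp3 and Snap23 were -3.26, -2.69, -2.19 and -1.92, further towards kidney. Stx3, Vamp3 and Vamp8 kept this direction and stayed over 2-fold under each alternative that could be computed; Snap23 did too, except with the higher floor, which neither tissue reached. Further probe sets varied: 1434559_at of Stx3 (14 in brain and 313 in kidney) and 1437708_x_at of Vamp3 (71.5 and 2339.6) were also called for kidney, while 1425530_a_at of Stx3 (129 and 109.1) and 1421102_a_at of Vamp3 (129.6 and 89.2) were called for neither.

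Other SNARE paralogs were higher in brain or within 2-fold. Vamp1, the close relative of Vamp2, read 1686.5 in brain and 5.1 in kidney, making it at least 16.2-fold higher in brain. Snap47 read 3047.7 and 2287 with 1438176_x_at, 2.39-fold higher in brain, but was under 2-fold with signals as deposited (log2 ratio 0.41). Its unmarked probe set 1423745_at read 1450.1 and 636.5, 4.08-fold higher in brain after centring. With the probe sets that represent them, Vamp4 (581.5 and 547.4), Vamp7 (299.5 and 555.3), Stx2 (110.3 and 200.3) and Stx4a (237.6 and 308.6) were called for neither tissue after centring. Stx4a turned from a log2 ratio of 0.46 to -0.38 with signals as deposited. Vamp4 was called for brain by 1434796_at (717.3 and 206.8, 6.22-fold) and for neither by 1422896_at (169.9 and 43.2). With quantile normalization the log2 ratio of Vamp4 was 1.14, a call for brain. Vamp5 (27.3 and 294.3) had a bound of at least 1.58-fold towards kidney, and passed 2-fold with signals as deposited, with quantile normalization and without a floor.

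Outside the SNAREs no paralog was called for kidney with each pair centred. Synaptotagmins and synaptotagmin-like genes in the paralog list gave 6 calls for brain of 12 above the floor. Syt11, also called for brain, was counted with the endocytosis genes instead. Among the 6 were Syt7, a calcium sensor of slower release (1688.8 in brain and 47.8 in kidney), Syt4 (823.6 and 20) and Syt13 (2048.3 and 120.5). The call of Syt7 was lost on 430A only (log2 ratio 0.40). Sv2b read 2034.3 and 23.1, at least 16.7-fold higher in brain, and Sv2c 205.3 and 18.6, at least 1.69-fold and so not counted. Cplx3, a complexin of retina and some brain neurons, read 138.3 and 5.1, also too near the floor to count. Dnm3 read 2142 and 85.8, 5.89-fold higher in brain, but its log2 ratio was 0.70 on 430A only. Dnm2, the dynamin found in all tissues, read 304.5 and 253.3, which is 2.15-fold after centring and a log2 ratio of 0.27 with signals as deposited.

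**Figure D3:**
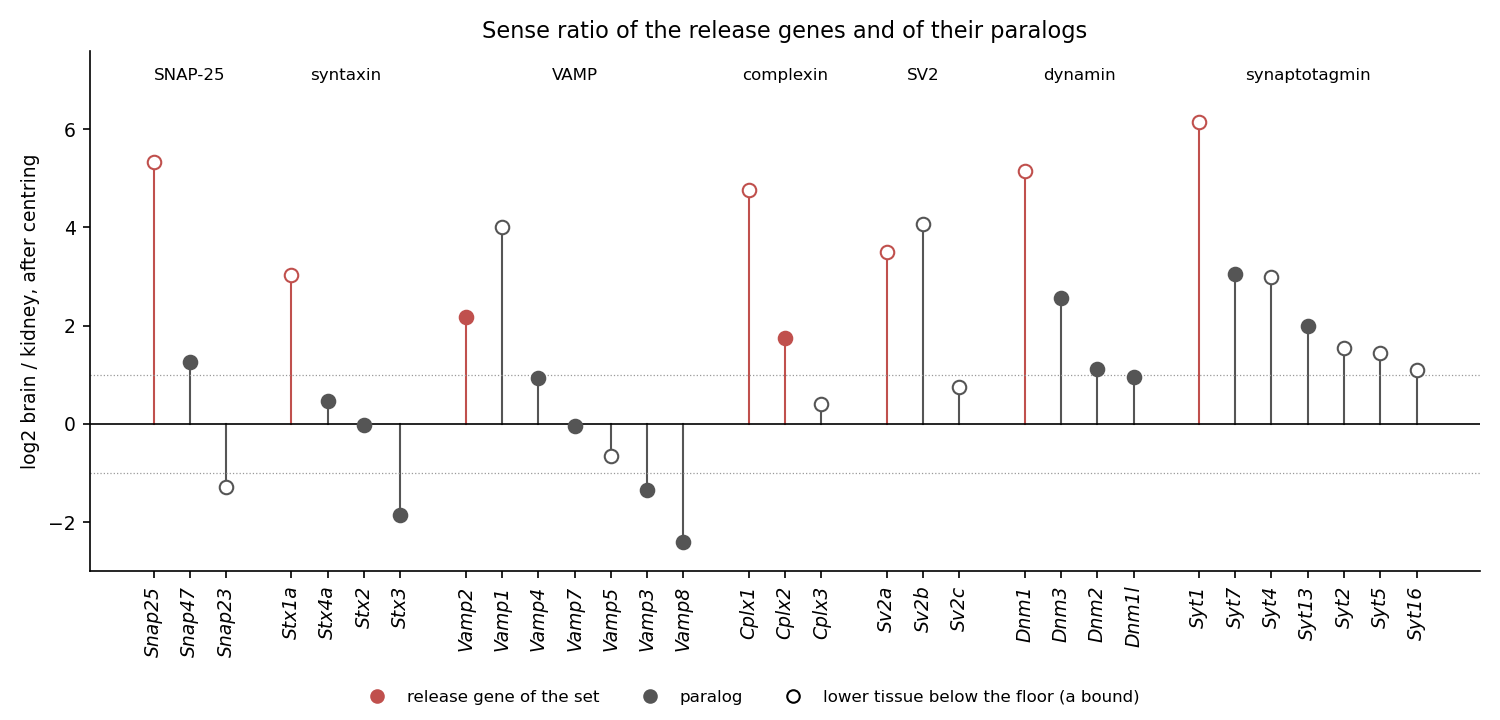
Log2 ratio of brain over kidney on the sense arrays for the release genes (red) and their paralogs above the floor (grey), grouped by family, with the 6 synaptotagmin paralogs counted as higher in brain shown of 12 above the floor; open symbols are bounds and dotted lines mark 2-fold. All red symbols lie above the upper line, and Snap23, Stx3, Vamp3 and Vamp8 lie below the lower one. Syt11, counted with the endocytosis genes, is not shown.

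The rest of the presynaptic terminal followed in part. In 4 lists of other genes of the release cycle, 83 of 86 genes with a probe set cleared the floor, with 58 called for brain and 5 for kidney and a median log2 ratio of 2.17 (63 and 3 of 82 with signals as deposited). With 430B on the 430A scale, 65 were called for brain and 1 for kidney of 83, so the kidney count depends on the scaling. Beside these counts and those of each list below, 2352 of all 12913 genes were called for brain and 3405 for kidney. With signals as deposited these were 3034 and 3335 of 12526, and with 430B on the 430A scale 3316 and 1956 of 12473. The share for brain thus rose over all genes too. The 4 lists were chosen with earlier results of these data known. By role, vesicle membrane proteins gave 15 higher in brain and 1 in kidney of 18. Syp, a main vesicle membrane protein, gave signals of 1937.1 in brain and 49.6 in kidney, Syngr1, another vesicle protein, 1952.7 and 198.4, and Atp6v1g2, a neuronal subunit of the proton pump, 2066.2 and 50.6. Vat1 (1057.5 and 559), called for kidney on 430B, leaned to brain with signals as deposited (log2 ratio 0.92, under 2-fold). On 430A its probe sets 1423726_at (130.6 and 330.8) and 1438165_x_at (100.2 and 201.3) leaned to kidney but were called for neither. Their log2 ratios after centring were -0.50 and -0.11. Active zone proteins and calcium channels gave 17 and 1 of 19. Bsn, a scaffold of the active zone, read 1652.6 and 7.5, and the adhesion molecule Nrxn2 2388 and 36.5, both towards brain; Bsn was under 2-fold on 430A only (log2 bound 0.50). Ppfia1, a liprin, was called for kidney (244.9 and 277.5, log2 ratio -2.26), but its log2 ratio was -0.18 with signals as deposited. Its other 430B probe set, 1435861_at (312.9 and 49.5), leaned to brain after centring at a log2 ratio of 0.58 and was called for neither.

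Docking and priming genes gave 14 higher in brain and 2 in kidney of 24 (16 and 0 of 23 with signals as deposited). Sncb, a synuclein, read 2767.6 in brain and 88.6 in kidney, the GTPase Rab3c 2284.4 and 3.3, and Rims3, of the Rim family of active zone proteins, 1713 and 3.1. The last 2 rest on a single 430B probe set each: the probe set of highest kidney signal was below the floor in both tissues for both genes. The probe set that represents Rab3c on 430A only was below it too. Another 430A probe set of Rab3c, 1432432_a_at (157.7 and 1.4), cleared the floor in brain but was called for neither tissue. The genes higher in kidney were Rab3gap1 (721.4 in brain and 423.6 in kidney) and Stxbp6 (1014.7 and 493), both read on 430B. Both leaned to brain with signals as deposited, at log2 ratios of 0.77 and 1.04, so their direction rests on the scaling of that array. Only Stxbp6 then reached 2-fold. Rab3a, the vesicle GTPase that Rph3a binds, was named after its values were seen. It read 2671.3 and 53.9 with 1422589_at on 430A, at least 25.7-fold higher in brain, and 4755.2 and 612.5 with 1459980_x_at on 430B, 1.83-fold and not counted. Centring took a log2 shift of 2.08 off that 430B ratio, and the signals as deposited were over 2-fold apart, so this call too rests on the scaling.

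Vesicle endocytosis genes, the partners of Dnm1, gave 12 higher in brain and 1 in kidney of 22 (15 and 3 with signals as deposited). Snap91, a clathrin adaptor of synapses, read 1610.8 in brain and 57.5 in kidney, Pacsin1, which binds dynamin, 1396 and 21.4, and Syt11 3874.1 and 57.7. Sh3gl1, the widely expressed endophilin, read 124.7 and 525.3 and was the gene counted as higher in kidney, except with the higher floor.

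**Figure D4:**
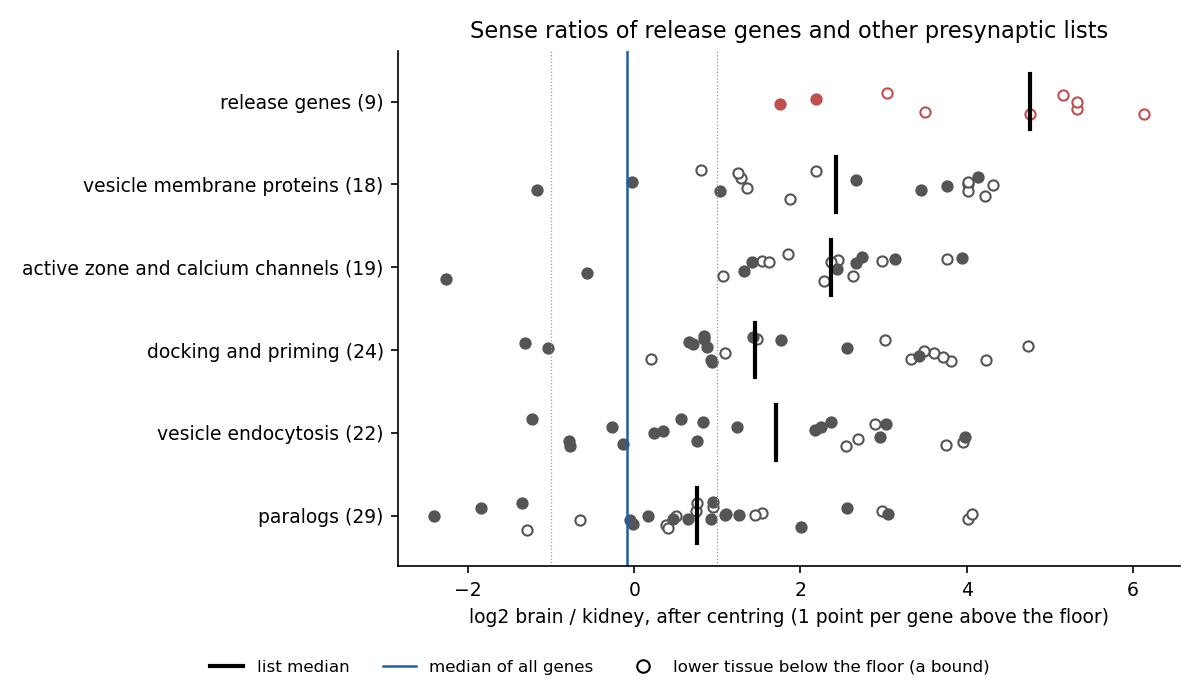
Log2 ratio of brain over kidney on the sense arrays, 1 point for each gene above the floor (number in brackets), for the release genes (red) and 5 lists of related genes (grey); black bars are list medians, the blue line is the median of all genes, dotted lines mark 2-fold and open symbols are bounds. The median of the release genes is 4.76, and those of the other lists run from 0.76 for the paralogs to 2.43 for the vesicle membrane proteins.

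Over the 12393 genes of 430A, those nearest to the release genes in their within-array percentiles were Cdk5r1, Psd, Cnih2, Snap91 and Rgs4. The measure was the distance to the median of the 9 genes, percentile 95.9 in brain and 56.2 in kidney, over 2 tissues only. Their signals ran from 877.1 to 1610.8 in brain and from 50.6 to 63.4 in kidney. In all 38 genes lay within 5 percentile points, these 5 among them. The kidney values of all 5 lay below the 430A floor, at percentiles 54.5 to 58.1 of the kidney array. No order among them is read, and the likeness in kidney says only that each lay below that floor.

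On the antisense side, Sv2a was the single release gene that could be read. Its reverse probe set 112796_at on U74B gave 304.1 in brain and 59.4 in kidney, at percentiles 94.4 and 60.5 of the reverse probe sets of each array. The kidney value lay below the floor of 98.5, the higher 75th percentile of that pair, so the antisense signal was at least 3.09-fold higher in brain. Over all reverse U74B probe sets that cleared the floor, the calls were 14.3% for brain and 6.41% for kidney. With a floor at percentile 90 the log2 bound was 0.51, under 2-fold, and Sv2a was not called. Its sense signal, 1171.5 and 131, was also higher in brain, so both strands leaned the same way in this gene. Sense and antisense levels came from different probes and array types and were not compared with each other.

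Reverse probe sets of the other presynaptic genes and of the paralogs were mostly below the floor, as were reverse probe sets in general. With that of Sv2a there were 26, for 22 genes, and 7 cleared the floor: 2 were called for brain, 1 for kidney and 4 for neither. Over all reverse probe sets, 723 of 2611 cleared it on U74A and 983 of 3041 on U74B. Beside Sv2a, the one called for brain was 103175_f_at of Dnm2 on U74A, at 338.9 in brain and 159.2 in kidney, 2.13-fold. On U74A the calls over all reverse probe sets were 28.8% for brain and 3.73% for kidney. The Dnm2 probe set called for brain carries a suffix mark, while the unmarked one, 92576_at, read 69.1 and 42 and was not counted. The one called for kidney was 114385_at of Itsn2, an endocytic scaffold, at 75 in brain and 212.7 in kidney, a gap of at least 2.16-fold. The reverse probe set of Lin7a, a scaffold of the presynaptic membrane, read 561.6 and 379.5, within 2-fold, while its sense signal was 1094.7 in brain and 29.3 in kidney. Syn2, a synapsin, read 43.5 and 64.7 on the reverse strand and 2826.4 and 49.1 on the sense strand. Its reverse probe set, 103287_r_at, also carries a suffix mark, and its kidney signal lay just over the U74A floor of 63.5. Both genes were thus called for brain on the sense strand and for neither tissue on the reverse strand. The reverse probe set of Rab3b read 123 and 51.4, at least 1.94-fold towards brain.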

How the data were processed

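Brain and kidney RNA of mouse was read on Affymetrix arrays. The deposited values are linear MAS5 signals, an intensity per probe set, as the submitters' processing notes name them. Reverse U74 probe sets are those kept by Affymetrix's mask, per the labels. The floor took the place of detection calls, which were not used here. GEO's platform annotation gave the gene of a probe set, and gene identifiers were matched to RefSeq GRCm38.p6 (20351 of 20380 single-symbol probe sets on 430A, 14486 of 14661 on 430B). Centring removed a log2 shift of -0.84 for 430A and 2.08 for 430B; antisense signals stayed as deposited. The 100 probe sets on both brain arrays were taken from 430A. With 430B on the 430A scale, the median log2 ratio of all genes moved from -0.08 to 0.29, and calls from 2352 for brain and 3405 for kidney to 3316 and 1956. The naming rule took the 9 genes with every probe set, the paralogs above the floor (by value or in counts), the 3 called genes with the largest ratio each way in every other list, and the 5 genes nearest by percentile; not all of them are printed. The members and lists were chosen with earlier results of these data known. With 1 array per tissue and design no test was made, and precision is limited by that number. Calling and counting were tested on simulated data (Python 3.11.15, pandas 2.3.3, NumPy 2.4.6). Alternatives changed the scaling, the floor, the choice of probe set and the threshold.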

Additional observations from a re-analysis of the deposited data

How the results depend on the processing

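All 9 release genes were called for brain under 8 of the 11 alternatives on the sense arrays. The count was 8 with the probe set of highest kidney signal (Snap25 at 0.78), 8 of 8 without probe sets marked by a suffix (Dnm1 has no other), and 8 at a 4-fold threshold (Cplx2). The log2 ratio of each stayed above 0 throughout, from 0.78 to 8.85 for Snap25, 2.96 to 6.28 for Syt1, 2.31 to 5.52 for Rph3a, 1.70 to 3.84 for Cplx2 and 1.34 to 2.52 for Vamp2. The alternative with the 430A floor used for 430B was chosen after seeing the data and gave 9. The reverse probe set of Sv2a gave a count of 0 with the floor at percentile 90 and 0 at a 4-fold threshold, in place of 1. Paralogs called for brain numbered 11 of 29. They were 7 of 18 with the floor at percentile 75, 19 of 36 without a floor, 7 of 25 on 430A only and 6 of 29 at a 4-fold threshold. In that order, the counts over all genes were 2352 of 12913, 1097 of 8715, 4696 of 18193, 1585 of 8157 and 804 of 12913. Directions turned for 5 other genes that had been called and, with signals as deposited, for Sytl2 (0.64 to -0.20) and Stx4a (0.46 to -0.38), which had been called for neither tissue. Of the called genes, with signals as deposited and with 430B on the 430A scale, Rab3gap1 was at 0.77 and 0.28, Stxbp6 at 1.04 and 0.55 (0.23 on 430A only) and Vat1 at 0.92 and 0.43; Lrp2 was at -2.51 with the median of its probe sets, -3.69 with that of highest kidney signal and -3.69 on 430A only; Synpo was at -1.60 with that of highest kidney signal. These follow from scaling or from reading another probe set. No paired analysis was possible because each tissue had 1 array of each design. Signal near the floor limits most folds to bounds, and array type cannot be told apart from tissue.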
